A study of Mus musculus with 6 samples.

Results

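The nuclear genes of mitochondrial oxidative phosphorylation were followed through 3 subsets of mouse thymic endothelial cells (ECs). The members were chosen by gene symbol alone (symbols that begin with Ndufa, Ndufb, Ndufc, Ndufs, Ndufv, Uqcr, Cox4 to Cox8 or Atp5, and Sdha to Sdhd) and without regard to level, which gave 92 of the 24457 genes on chromosomes. Wild-type female C57BL/6 mice, 4 to 6 weeks old by the sample labels, gave the thymi from which CD31+CD45-EpCAM- cells were sorted, and no subset carried a mutation or had received a treatment. Ly6C and P-selectin (Selp) separated them into Ly6C+Selp- ECs (called Selp- ECs from here on), Ly6C+Selp+ ECs and Ly6C-Selp+ ECs (called Ly6C- ECs), and RNA of each subset was sequenced in 2 libraries, 6 in all. The labels do not say whether the libraries of a subset came from separate animals, so the p-values measure only the spread between these libraries, which may be technical.

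The inner mitochondrial membrane holds 4 electron transport complexes and an ATP synthase. Complex I takes electrons from NADH and complex II from succinate, complex III passes them to cytochrome c, complex IV hands them to oxygen, and complex V uses the proton gradient so built to make ATP. ECs are known for drawing much of their energy from glycolysis, while their mitochondria also serve signalling and biosynthesis. The members covered 44 genes assigned to complex I, 4 to complex II, 8 to complex III, 20 to complex IV and 16 to complex V. By role, 74 encode structural subunits in general use, 8 encode isoforms with a restricted tissue range and 10 encode assembly factors or proteins related to them, since a symbol such as Ndufaf1 or Cox7a2l also matches. Ndufa4 and Ndufa4l2 were counted with complex IV, where Ndufa4 resides. Subunits encoded in mitochondrial DNA were not analysed here.

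Expression was measured as FPKM, the fragments of a gene scaled by transcript length and by the depth of the library. A comparison of levels between genes therefore depends on the transcript length used for each. Libraries remained unequal on this scale, with summed FPKM from 221458 to 300932, and the main fit applied no further scaling. Differences are given on the scale of log2(FPKM + 1) with their standard error (SE) and the 95% confidence interval from limma, and a gene passed the test at a Benjamini-Hochberg adjusted p below 0.05 over the 11717 genes that reached 1 FPKM in 2 or more libraries. An exact permutation test of 2 libraries against 2 cannot give a p below 0.33, so no such test was run. The fragments read back from the authors' confidence bounds summed to between 1452476 and 2423171 per library, and the median member rested on 41.8 to 73.4 fragments per library. Replicate 1 stood above replicate 2 of its subset in 83 of the 88 tested members in Selp- ECs, by a median of 0.59 on the log2 scale, where the median over all tested genes was 0.39. The corresponding numbers were 64 members and 0.31 in Ly6C+Selp+ ECs, and 65 members and 0.25 in Ly6C- ECs. The gap between the replicates of Selp- ECs exceeded every median difference of the members between subsets.

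Markers of other cells were read in the same libraries. The summed FPKM of 10 endothelial markers lay between 2134 and 3044, with Pecam1 at 496 to 867. Summed markers of pericytes and smooth muscle (12 genes) reached 276 to 639 for Selp- ECs, 485 to 629 for Ly6C+Selp+ ECs and 184 to 269 for Ly6C- ECs. Macrophage and dendritic sums were 59.1 to 391 for Selp- ECs, 59.0 to 155 for Ly6C+Selp+ ECs and 111 to 622 for Ly6C- ECs. In the same order, thymocyte sums were 31.9 to 120, 49.6 to 80.8 and 95.2 to 211. Fibroblast sums were 167 to 278, 275 to 456 and 182 to 184. Over the 6 libraries, thymic epithelium spanned 23.0 to 105, lymphatic ECs 9.85 to 30.1 and striated and cardiac muscle 0.28 to 5.43. In every subset, the sums of macrophages, thymocytes and thymic epithelium were higher in replicate 1. Erythroid markers lay at 84.3 to 140 for Selp- ECs, 26.4 to 51.4 for Ly6C+Selp+ ECs and 0 to 10.9 for Ly6C- ECs. In RNA of sorted populations, fewer cells of a type and less RNA per cell cannot be told apart.

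The structural subunits were among the more abundant transcripts of all 3 subsets. The median structural subunit exceeded 91.3% of the tested genes in mean log2 level, 72 of the 74 had a mean above 10 FPKM and 9 had a mean above 100 FPKM. Cox6a1, the common form of a small complex IV subunit, was highest, with 245 and 227 FPKM for Selp- ECs, 177 and 158 for Ly6C+Selp+ ECs and 181 and 219 for Ly6C- ECs. Cox4i1, the common form of the largest nuclear complex IV subunit, followed with a mean of 182 FPKM and the catalytic ATP synthase subunit Atp5b with 154. Levels were uneven between complexes. The median mean FPKM of structural subunits was 31.2 in complex I, 28.2 in complex II, 58.8 in complex III, 101 in complex IV and 82.4 in complex V. By FPKM, complex I ran from Ndufa11 at 4.05 to Ndufa3 at 90.1. These 2 rested on similar estimated fragments, 21 to 44.3 and 21 to 69.6 per library. Most of their gap in FPKM therefore lies in the transcript lengths used for scaling, and the complex medians share this dependence. The complex I core subunit Ndufs1, which carries iron-sulfur clusters on the path of the electrons, reached a mean of only 11.05.

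**Figure D1:**
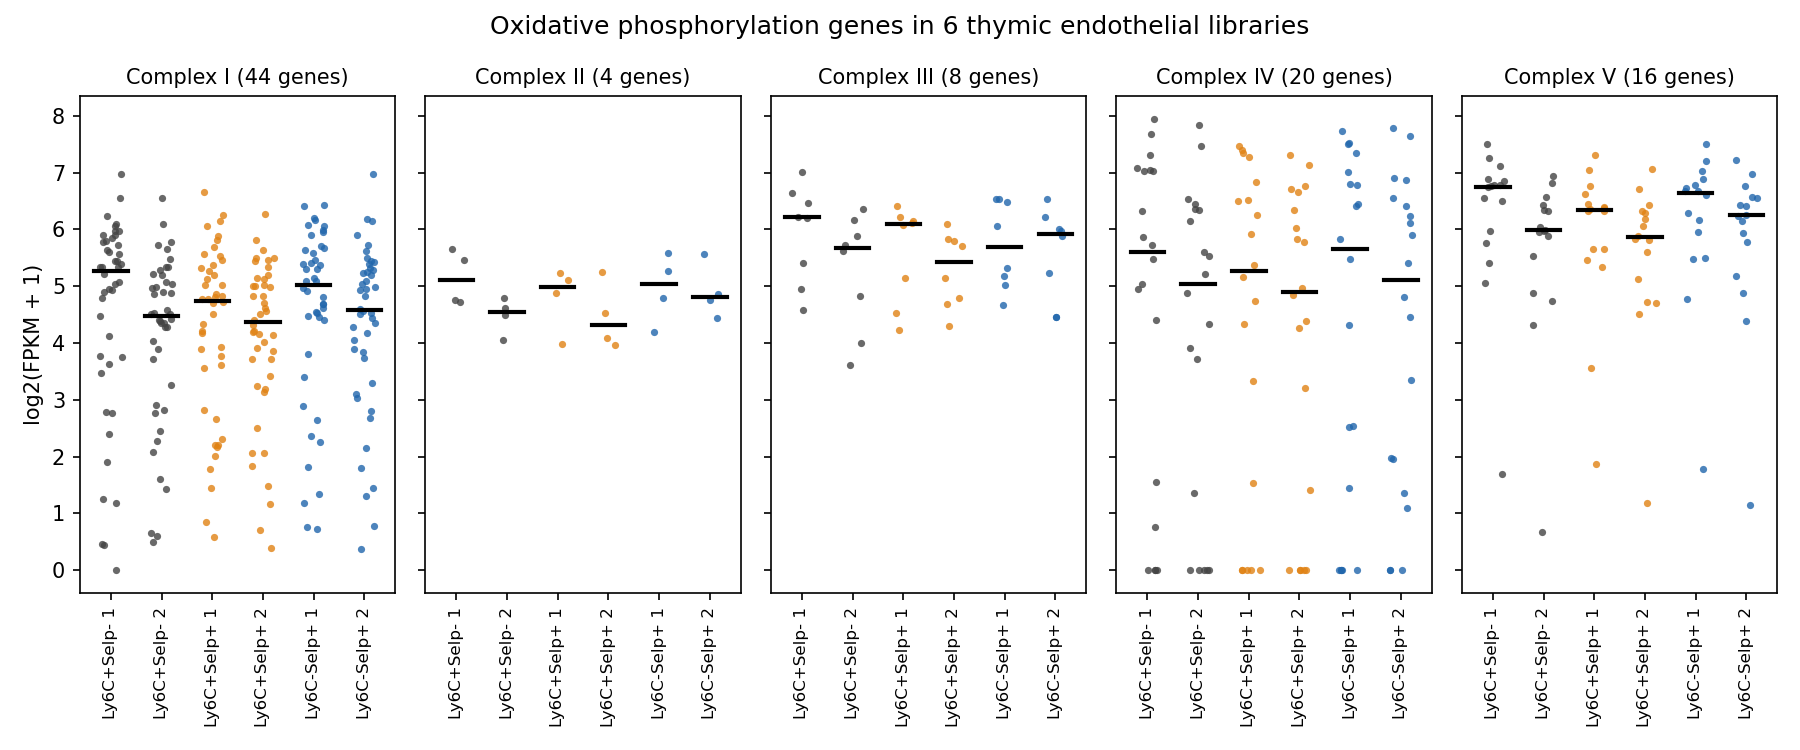
Level of each of the 92 genes as log2(FPKM + 1) on the y axis in each of the 6 libraries, by complex; each point is a gene and each black line the median of the complex in that library. Replicate 1 lies above replicate 2 in the medians of most panels, and the points at 0 in complex IV are tissue isoforms.

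All members together took a similar share of the summed FPKM in every library. The share was 1.75% and 1.60% for Selp- ECs, 1.60% and 1.46% for Ly6C+Selp+ ECs and 1.62% and 1.497% for Ly6C- ECs. The subset means were 1.68% ± 0.11 (SD, n = 2), 1.53% ± 0.10 and 1.56% ± 0.09. The range of Ly6C- ECs overlapped those of the other 2 subsets, which were apart by a narrow margin (1.598% against 1.596%). A share also depends on the other genes in the sum. Of these, Rn45s took 4.90% and 4.74% for Selp- ECs, 5.86% and 5.36% for Ly6C+Selp+ ECs and 5.95% and 6.57% for Ly6C- ECs. Complex I made up 0.51% ± 0.03 of the summed FPKM for Selp- ECs, 0.45% ± 0.02 for Ly6C+Selp+ ECs and 0.47% ± 0.03 for Ly6C- ECs, and complex V 0.48% ± 0.04, 0.43% ± 0.03 and 0.45% ± 0.03.

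Promoters were examined because most members differed little between Ly6C- and Selp- ECs, where 85.2% lay within 0.5 of 0, against 68.6% of all tested genes. The band was not narrow in every comparison. Between Ly6C+Selp+ and Selp- ECs the shares were 73.9% of members and 77.1% of all tested genes. Between Ly6C- and Ly6C+Selp+ ECs they were 79.5% and 72.3%. Nuclear respiratory factor 1 (NRF1) is a transcription factor known to bind palindromic sites in promoters of respiratory genes, and YY1, ETS family factors and the oestrogen-related receptors (ERR) are other known regulators of these genes. RefSeq promoters of 300 bases (250 before the transcription start and 50 after it, build GRCm38.p6, while the expression files use mm9) were matched for 76 of the 92 members. The NRF1 motif GCGCATGCG occurred on either strand in 10 of the 76 promoters (13.2%) and in 1.81% of all 27025 promoters. The 10 genes were Atp5g2, Atp5k, Atp5l, Cox6a1, Ndufa8, Ndufa11, Ndufaf4, Ndufaf5, Uqcr11 and Uqcrc1. For the YY1 motif AAGATGGC the shares were 13.2% of members and 2.88% of all promoters, for the ETS motif CCGGAAG 21.1% and 9.12%, and for the ERR motif AAGGTCA 10.5% and 4.66%. The GC box GGGCGG was found in 44.7% of members and 35.9% of all promoters, the hypoxia response core ACGTG in 26.3% and 19.7%, and the TATA box TATAAA in 9.21% and 14.2%. Both strands were searched for each motif, and a match describes these letters and not a bound site. The median difference between Ly6C- and Selp- ECs was -0.15 for the tested members with the NRF1 motif and -0.0076 for those without it.

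The 250 bases before the start are shown for 3 strongly expressed members with the NRF1 motif. They are also shown for Cox7a2 and Cox7a2l, a related pair whose subset means stood in opposite order. Capitals mark NRF1, YY1, ETS and ERR matches on either strand; GCGCATGCG read on both strands of its palindrome covers 10 capitals. Cox6a1 (chr5:115348959-115349208, minus strand) holds the NRF1 motif 162 bases before the start and an ETS match 16 bases before it. In Atp5k (chr5:108434400-108434649, minus strand) the NRF1 motif begins 50 bases before the start, and in Atp5g2 (chr15:102671048-102671297, minus strand) 42 bases before it. Cox7a2 (chr9:79759854-79760103, minus strand) and Cox7a2l (chr17:83514334-83514583, minus strand) hold none of these 4 motifs in the stretch shown.
Cox6a1: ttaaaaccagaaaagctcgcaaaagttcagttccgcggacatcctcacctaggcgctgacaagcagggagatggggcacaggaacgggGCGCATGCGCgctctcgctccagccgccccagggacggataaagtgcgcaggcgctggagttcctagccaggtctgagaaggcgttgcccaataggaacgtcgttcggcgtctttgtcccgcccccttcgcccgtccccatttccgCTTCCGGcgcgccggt
Atp5k: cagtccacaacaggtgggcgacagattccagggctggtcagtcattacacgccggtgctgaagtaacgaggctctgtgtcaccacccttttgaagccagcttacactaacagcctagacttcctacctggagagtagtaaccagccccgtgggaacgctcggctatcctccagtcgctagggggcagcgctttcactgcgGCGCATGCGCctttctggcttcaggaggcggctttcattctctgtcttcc
Atp5g2: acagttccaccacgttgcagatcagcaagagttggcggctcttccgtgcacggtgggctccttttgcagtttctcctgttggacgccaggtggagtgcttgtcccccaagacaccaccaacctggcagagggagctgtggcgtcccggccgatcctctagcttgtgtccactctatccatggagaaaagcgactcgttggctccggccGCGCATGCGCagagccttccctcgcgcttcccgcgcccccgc
Cox7a2: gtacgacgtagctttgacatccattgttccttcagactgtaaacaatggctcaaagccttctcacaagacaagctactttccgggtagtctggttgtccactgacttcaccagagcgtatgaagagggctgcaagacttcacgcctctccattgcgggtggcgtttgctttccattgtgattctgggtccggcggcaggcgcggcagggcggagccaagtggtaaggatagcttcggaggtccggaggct
Cox7a2l: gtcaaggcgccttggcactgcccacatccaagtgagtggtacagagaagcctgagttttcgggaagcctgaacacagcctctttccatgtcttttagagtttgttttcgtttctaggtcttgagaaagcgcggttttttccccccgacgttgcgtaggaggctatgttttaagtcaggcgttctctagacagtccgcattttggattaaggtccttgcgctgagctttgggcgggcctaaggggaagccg

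Between Ly6C- and Selp- ECs, the subsets that differ in both sort markers, no structural subunit of the respiratory chain passed the test and 2 complex IV isoforms did. Cox4i2, the isoform of subunit 4 known from lung and oxygen-sensing cells, was lower in Ly6C- ECs, and Cox6b2, the testis isoform of subunit 6b, was called from very few fragments, having passed the filter only through the subset where it was high. These were 2 of the 88 members that could be tested (the other 4, Cox7b2, Cox8b, Cox8c and Ndufaf5, were below the filter), where 485 of the 11717 tested genes (4.14%) were called; with Cox6b2 set aside the count was 1. Above 0 were 44 members (50%), against 57.4% of all tested genes. The median difference of the members was 0.0045, against 0.08 over all tested genes. Its sign depends on the scaling and on 1 library: it was -0.15 with libraries scaled to the same sum, 0.28 without replicate 1 of Selp- ECs and -0.27 without replicate 2. Of the 88 members, 75 (85.2%) lay within 0.5 of 0, against 68.6% of all tested genes, at higher levels than most of those genes. The libraries of Ly6C- ECs were both above both libraries of Selp- ECs in 7 members (7.95%, against 20.7% of all tested genes) and both below in 9 (10.2%, against 17.1%). The standard errors had a median of 0.34 and the confidence intervals a median half-width of 0.76, and for 45 of the 88 members the interval lay within -1 and 1. For the other members, apart from Cox4i2 and Cox6b2, a change of 1 on the log2 scale was within the interval.

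**Figure D2:**
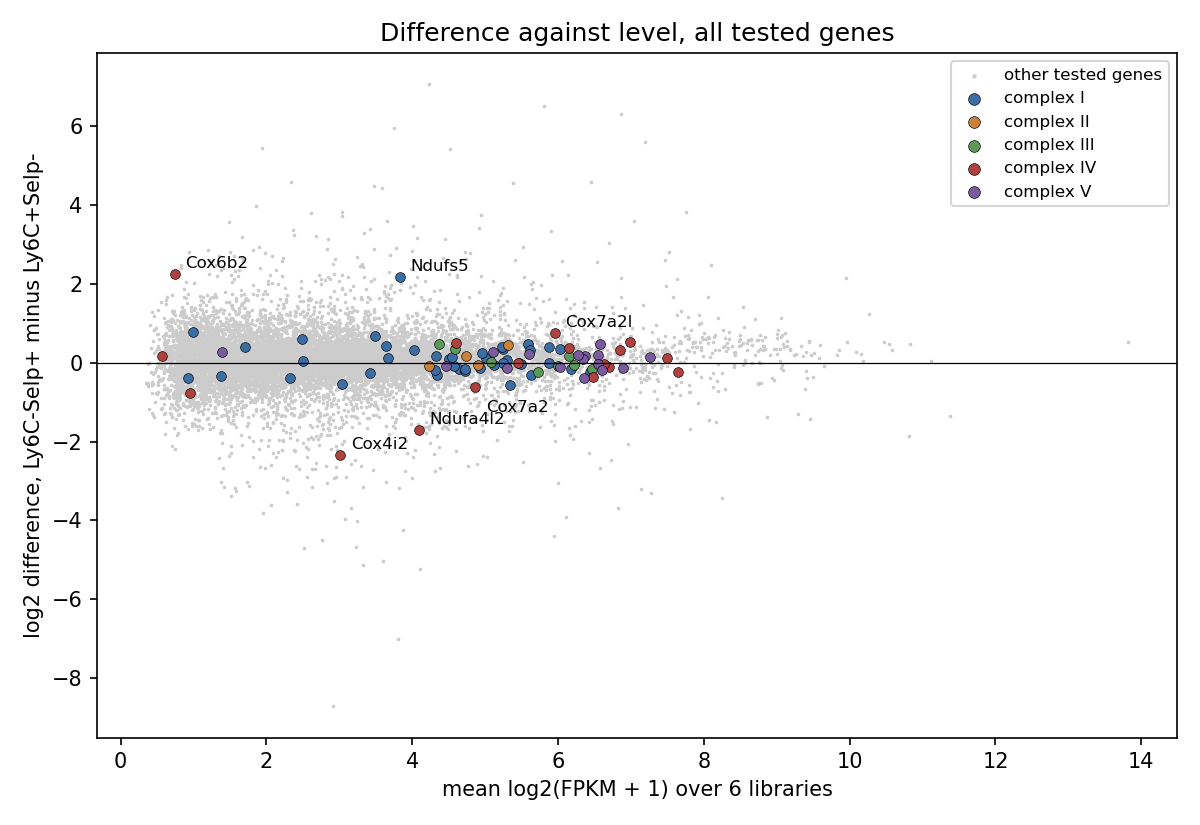
Log2 difference of Ly6C- minus Selp- ECs (y axis) against the mean log2(FPKM + 1) over the 6 libraries (x axis); grey points are the other tested genes and coloured points the 88 tested members by complex. Most members sit in a band around 0 at high level, and Cox4i2 at -2.35, Ndufa4l2 at -1.71, Ndufs5 at 2.16 and Cox6b2 at 2.24 lie outside it.

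The catalytic and electron-carrying subunits showed no call in any comparison. In complex I, Ndufv1, which binds NADH, measured 32.6 and 22.2 FPKM for Selp- ECs, 21.9 and 20.1 for Ly6C+Selp+ ECs and 24.8 and 23.4 for Ly6C- ECs. Its difference between Ly6C- and Selp- ECs was -0.15 ± 0.27 (SE; 95% interval -0.77 to 0.46). Of the other core subunits, Ndufs3 differed by 0.10 ± 0.31, Ndufs7 by -0.15 ± 0.31, Ndufs8 by 0.11 ± 0.24, Ndufv2 by 0.12 ± 0.49 and Ndufs1 by 0.68 ± 0.45. The highest Ndufs1 value came from a single library, 21.3 FPKM in replicate 1 of Ly6C- ECs and 5.80 to 11.4 in the other 5 libraries. Among the accessory subunits, Ndufa3 ranged from 55.5 to 125 FPKM over the libraries (-0.24 ± 0.33) and Ndufa8 from 55.2 to 92.9 (-0.15 ± 0.27). The median over the 36 structural subunits of complex I was -0.01. With Ndufs5 set aside, the structural subunits of all 5 complexes ran from -0.61 (Cox7a2) to 0.68 (Ndufs1).

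Ndufs5 is an accessory subunit of the membrane arm and stood apart in 1 library. It was listed at 0.00146 FPKM in replicate 1 of Selp- ECs, against 21.8 in replicate 2 and 20.2 to 34.1 in the other 4 libraries. Its difference between Ly6C- and Selp- ECs was 2.16 ± 1.10 (adjusted p = 0.46 by limma) and -0.09 without that library. With replicate 2 of Selp- ECs left out instead, the difference was 4.42 and the adjusted p 0.00090. The gene (chr4:123389953-123395429, mm9) has another stretch in the mm9 genome that matches its coding sequence at 99.4% identity, and how the authors' counting treated reads that fit both is not given in the sources used here. Ndufb2, another accessory subunit, showed a similar single low value, 3.48 FPKM in replicate 1 of Ly6C+Selp+ ECs against 18.4 to 39.3 elsewhere.

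Complex II, the only one that also belongs to the citric acid cycle, was measured through its 4 subunits. Sdha, the flavoprotein that oxidises succinate, measured 43.3 and 26.6 FPKM for Selp- ECs, 36.4 and 37.2 for Ly6C+Selp+ ECs and 46.7 and 46.5 for Ly6C- ECs. Both Ly6C- libraries were above the other 4, with a difference from Selp- ECs of 0.45 ± 0.28 (95% interval -0.18 to 1.07, adjusted p = 0.58). Sdhb, the iron-sulfur subunit, differed by -0.06 ± 0.40 and the membrane anchor Sdhc by 0.17 ± 0.28.

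In complex III, the Rieske iron-sulfur protein Uqcrfs1 gave 23.0 and 11.3 FPKM for Selp- ECs, 22.1 and 18.7 for Ly6C+Selp+ ECs and 24.6 and 20.9 for Ly6C- ECs. Its difference of 0.47 ± 0.34 between Ly6C- and Selp- ECs was the largest of the complex in size. Uqcrc1 and Uqcrc2, the large subunits on the matrix side, differed by 0.01 ± 0.28 and 0.34 ± 0.38. The small subunits Uqcr11 and Uqcrq, which had the highest levels of the complex with means of 88.9 and 75.1 FPKM, differed by -0.15 ± 0.27 and -0.05 ± 0.27.

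In complex V, Atp5a1 and Atp5b form the catalytic head. Atp5b measured 181 and 121 FPKM for Selp- ECs, 158 and 133 for Ly6C+Selp+ ECs and 180 and 149 for Ly6C- ECs. The difference was 0.14 ± 0.27 (95% interval -0.46 to 0.74) and that of Atp5a1 0.18 ± 0.30. The largest differences in size among the 16 genes were those of Atp5h, a stalk subunit (0.47 ± 0.33), and Atp5j, coupling factor 6 (-0.38 ± 0.26). Atp5h has 4 near-identical copies in the genome. Atp5j shares 397 exonic bases with Gabpa on the opposite strand, and the library kit is not stated to keep the strand. The c ring, whose rotation drives the enzyme, is built from 1 protein encoded by 3 genes. Atp5g2 and Atp5g3 supplied most of their summed FPKM and Atp5g1 a minor share, at 12.2% ± 1.02 (SD, n = 2) for Selp- ECs, 10.97% ± 6.77 for Ly6C+Selp+ ECs and 10.4% ± 0.82 for Ly6C- ECs. Atp5g2 has 3 near-identical copies in the genome and Atp5g1 has 1, so these shares are uncertain.

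**Figure D3:**
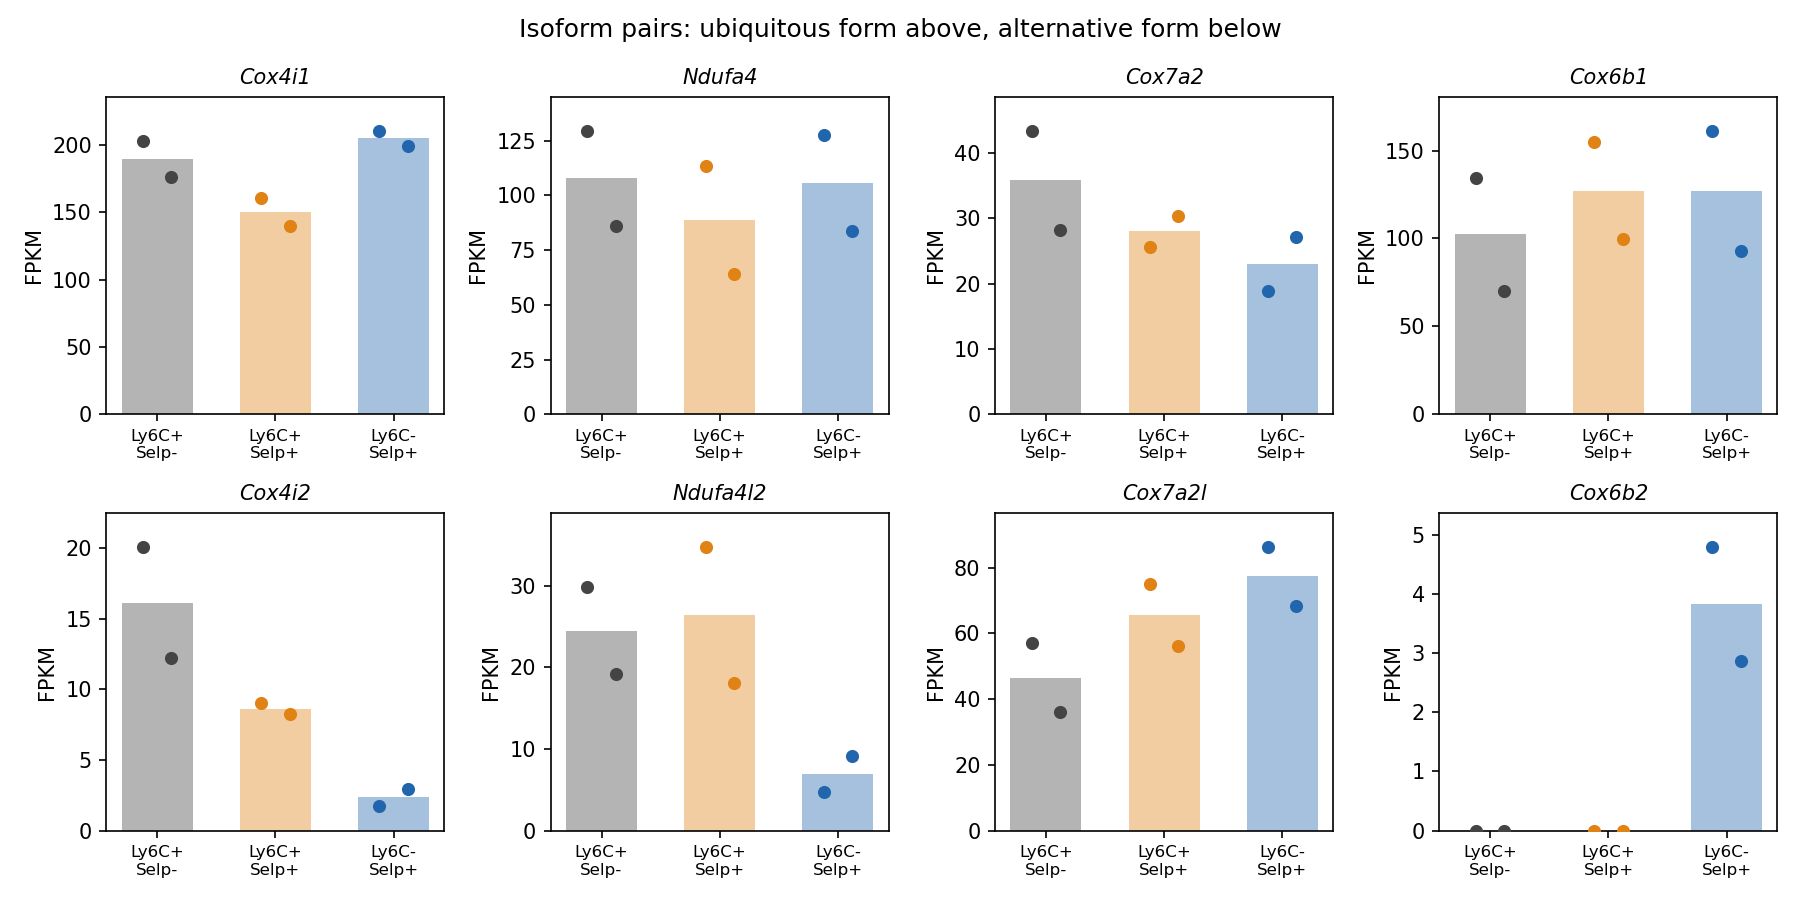
FPKM (y axis) of 4 pairs of related complex IV genes in the 3 subsets; bars are the means and points the 2 libraries, with the common form above and the alternative or related form below. Cox4i2 falls from 20.1 and 12.2 to 1.73 and 2.96 across the subsets, and Cox4i1 lies between 140 and 211.

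The common nuclear subunits of complex IV had no call, with Cox5a at -0.02 ± 0.28, Cox5b at -0.37 ± 0.28 and Cox6a1 at -0.24 ± 0.23 between Ly6C- and Selp- ECs. The largest difference in size belonged to a tissue isoform. Cox4i2 (chr2:152579909-152590773, mm9) measured 20.1 and 12.2 FPKM for Selp- ECs, 9.01 and 8.26 for Ly6C+Selp+ ECs and 1.73 and 2.96 for Ly6C- ECs, from an estimated 32.7, 25, 11, 16, 2 and 6 fragments. The 3 subsets did not overlap, and the mean was 6.90 times higher in Selp- than in Ly6C- ECs. The difference was -2.35 ± 0.34 (95% interval -3.12 to -1.57, adjusted p = 0.0058 by limma), and it passed the test under all 16 alternatives tried, with adjusted p from 0.0018 to 0.038. The Cox4i1 difference was 0.11 ± 0.22 (95% interval -0.39 to 0.62). Within a library, Cox4i2 made up 9.0% and 6.47% of the FPKM of the subunit 4 pair for Selp- ECs, 5.30% and 5.57% for Ly6C+Selp+ ECs and 0.81% and 1.46% for Ly6C- ECs. A share within a library does not depend on the scaling between libraries. Between neighbouring subsets the Cox4i2 difference did not pass the test, at -0.79 ± 0.34 for Ly6C+Selp+ against Selp- ECs (adjusted p = 0.65) and -1.55 ± 0.34 for Ly6C- against Ly6C+Selp+ ECs (adjusted p = 0.14).

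Ndufa4l2, a paralog of the complex IV subunit Ndufa4 that hypoxia is known to induce, was low in the same subset. The gene (chr10:126951995-126954210, mm9) measured 29.8 and 19.2 FPKM for Selp- ECs, 34.8 and 18.1 for Ly6C+Selp+ ECs and 4.74 and 9.19 for Ly6C- ECs. The Ly6C- libraries lay below the other 4, and the ranges of the Ly6C+ subsets overlapped. The difference from Selp- ECs was -1.71 ± 0.41 (95% interval -2.62 to -0.79) with an adjusted p of 0.054, just outside the threshold; it passed in 9 of 16 alternatives, with adjusted p from 0.019 to 0.31. Against Ly6C+Selp+ ECs the difference was -1.77 ± 0.41 (adjusted p = 0.14). Ndufa4 itself gave 130 and 85.9, 113 and 64.0, and 127 and 83.8 FPKM in the same order of subsets, a difference of -0.03 ± 0.35. The Ndufa4l2 share of the pair was 18.7% and 18.2% for Selp- ECs, 23.5% and 22.1% for Ly6C+Selp+ ECs and 3.59% and 9.88% for Ly6C- ECs.

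Both genes are known from pericytes, the mural cells of small vessels, and markers of those cells moved in the same comparison. Of 12 pericyte and smooth muscle markers, 11 were tested and 4 passed the test as lower in Ly6C- than in Selp- ECs: Kcnj8, Abcc9, Pdgfrb and Notch3. Over all tested genes, 4.14% were called in this comparison. Pdgfrb, the growth factor receptor of mural cells, differed by -1.85 ± 0.33 (adjusted p = 0.013). Tagln, a contractile gene of smooth muscle, passed the test in the other direction, as higher in Ly6C- ECs (1.60 ± 0.27, adjusted p = 0.011 by limma). Acta2 (1.16) and Myh11 (0.73) were also higher, without a call, and the remaining tested markers were lower. Rgs5 measured 346 and 114 FPKM for Selp- ECs, 284 and 137 for Ly6C+Selp+ ECs and 48.6 and 45.4 for Ly6C- ECs, a difference of -2.06 ± 0.50 (adjusted p = 0.057). Kcnj8 and Higd1b were listed at 0 in replicate 1 of Ly6C- ECs, and no marker was at 0 in all libraries. The part of such cells in the levels of Cox4i2 and Ndufa4l2 was not tested. Of 12 genes of the hypoxia response, 11 were tested, with a median difference of 0.68, against 0.08 over all tested genes. The test was passed by 1, Egln3, which was higher in Ly6C- ECs (2.09 ± 0.44, adjusted p = 0.031 by limma). Higd1a (-0.57), Egln1 (-0.39) and Epas1 (-0.25) went the other way without a call.

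Cox6b2 (chr7:4703394-4704696, mm9) was listed at 0 in the 4 libraries of the Ly6C+ subsets and at 4.80 and 2.87 FPKM in Ly6C- ECs, which rested on an estimated 1.4 and 1.6 fragments. The gene passed the filter only through these 2 libraries, and its difference on the log2(FPKM + 1) scale was 2.24 ± 0.40 (adjusted p = 0.014), a value that depends on the pseudocount. The call was lost with a pseudocount of 0.1 (adjusted p = 0.11) and without either replicate of Selp- ECs (0.065 and 0.076), and without either Ly6C- library the gene no longer passed the filter. Its common counterpart Cox6b1 measured 135 and 70.4, 155 and 99.9, and 161 and 93.0 FPKM, and differed by 0.33 ± 0.39. The heart and muscle isoforms Cox6a2 and Cox7a1 reached at most 1.89 and 1.94 FPKM, with 0 listed in 3 and 2 libraries. Cox8b, Cox8c and Cox7b2 were listed at 0 in all 6 libraries. Their common forms Cox8a and Cox7b differed by -0.10 ± 0.34 and 0.49 ± 0.43.

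In the subunit 7a family, the subset means of Cox7a2l and Cox7a2 ran in opposite order. Cox7a2l, which helps to join complexes III and IV into supercomplexes and of which C57BL/6 mice carry a shortened form, measured 57.1 and 36.1 FPKM for Selp- ECs, 75.0 and 56.2 for Ly6C+Selp+ ECs and 86.4 and 68.3 for Ly6C- ECs. Cox7a2, the common subunit 7a, gave 43.5 and 28.3, 25.7 and 30.4, and 18.9 and 27.2 FPKM. Both Ly6C- libraries were above both Selp- libraries for Cox7a2l and below them for Cox7a2. For Cox7a2 the gap was narrow between the replicates 2, at 27.2 and 28.3 FPKM. Replicate 2 of Ly6C+Selp+ ECs (30.4) lay above replicate 2 of Selp- ECs. The mean of Cox7a2l was 1.66 times higher in Ly6C- than in Selp- ECs and that of Cox7a2 was 1.56 times lower. Neither passed the test, at 0.75 ± 0.29 (95% interval 0.08 to 1.41, adjusted p = 0.28) and -0.61 ± 0.30 (-1.29 to 0.07, adjusted p = 0.44). Cox7a2l passed in 2 of 16 alternatives, both with the replicate block, with adjusted p from 0.019 to 0.93 over the 16, and Cox7a2 in 0. Cox7a2l made up 56.8% and 56.1% of the FPKM of the pair for Selp- ECs, 74.5% and 64.9% for Ly6C+Selp+ ECs and 82.1% and 71.5% for Ly6C- ECs. The Selp- libraries lay below the other 4 in this share, and the ranges of the Selp+ subsets overlapped.

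Assembly factors build the complexes without remaining in them. The Ndufaf genes had means below 10 FPKM, where 72 of the 74 structural subunits were above it, with Ndufaf2 highest at a mean of 9.81 FPKM and Ndufaf5 lowest at 0.56, which kept it out of the test. Ndufaf1 measured 1.28 and 2.04 FPKM for Selp- ECs, 3.05 and 2.59 for Ly6C+Selp+ ECs and 2.51 and 2.48 for Ly6C- ECs, a difference between Ly6C- and Selp- ECs of 0.41 ± 0.35. Differences were -0.27 ± 0.30 for Ndufaf2, 0.05 ± 0.34 for Ndufaf3, -0.38 ± 0.41 for Ndufaf4, 0.77 ± 0.49 for Ndufaf6 and -0.35 ± 0.40 for Ndufaf7. None passed the test, and Ndufaf6 rested on 5 fragments or fewer in every library.

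Between Ly6C+Selp+ and Selp- ECs, which differ in the sort by P-selectin, no member passed the test in limma, where 0.393% of all tested genes were called. An unadjusted p below 0.05 was seen for 3 members, and the share of all tested genes at that p is not given here. Most members had a lower mean in Ly6C+Selp+ ECs, with a median difference of -0.17 against -0.06 over all tested genes. Above 0 were 22 of 88 members (25%), against 43.3% of all tested genes. Both Ly6C+Selp+ libraries were below both Selp- libraries in 21 members (23.9%, against 20.6% of all tested genes) and above in 2 (2.27%, against 13.0%). The 21 included the core complex I subunits Ndufs3, Ndufs7, Ndufs8 and Ndufv1, and Cox4i1, Cox5a, Cox6a1, Atp5d and Atp5o. Ndufs7 measured 42.6 and 30.4 against 27.0 and 17.5 FPKM (-0.70 ± 0.31, adjusted p = 0.68), and Cox4i1 203 and 176 against 161 and 140 FPKM (-0.33 ± 0.22, adjusted p = 0.85). By complex, the medians of structural subunits were -0.30 for I, -0.15 for II, -0.11 for III, -0.30 for IV and -0.16 for V. The median depends on 1 library: it was 0.10 without replicate 1 of Selp- ECs and -0.50 without replicate 2.

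Between Ly6C- and Ly6C+Selp+ ECs, which differ in the sort by Ly6C, no member passed the test in limma either. The rate over all tested genes was 0.222%. An unadjusted p below 0.05 was seen for 6 members: Ndufab1, Ndufb11, Atp5o, Cox4i2, Cox6b2 and Ndufa4l2. The share of all tested genes at that p is not given here. Ndufab1 has 2 near-identical copies in the genome, and Ndufb11 and Atp5o have 1 each. Exons of Ndufb11 and Atp5o also overlap exons of other genes on the opposite strand. Here 68 of the 88 members (77.3%) were above 0, against 63.7% of all tested genes, and the median was 0.24 against 0.14. The median of the members was 0.02 with libraries scaled to the same sum, 0.07 with quantile normalization and 0.10 with median-ratio scaling, and ran from 0.11 (without replicate 2 of Ly6C+Selp+ ECs) to 0.42 (without replicate 1) when a library was left out. Both Ly6C- libraries were above both Ly6C+Selp+ libraries in 27 members (30.7%, against 27.7%) and below in 6 (6.82%, against 13.3%). The 6 were Cox4i2, Ndufa4l2, Ndufs5 and the assembly factors Ndufaf1, Ndufaf2 and Ndufaf4. Structural subunits had medians of 0.29, 0.34, 0.16, 0.25 and 0.37 for complexes I to V, so that all 5 stood above the 0.14 of all tested genes. Cox4i1 measured 211 and 200 against 161 and 140 FPKM, a difference of 0.45 ± 0.22 (95% interval -0.06 to 0.95, adjusted p = 0.56).

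**Figure D4:**
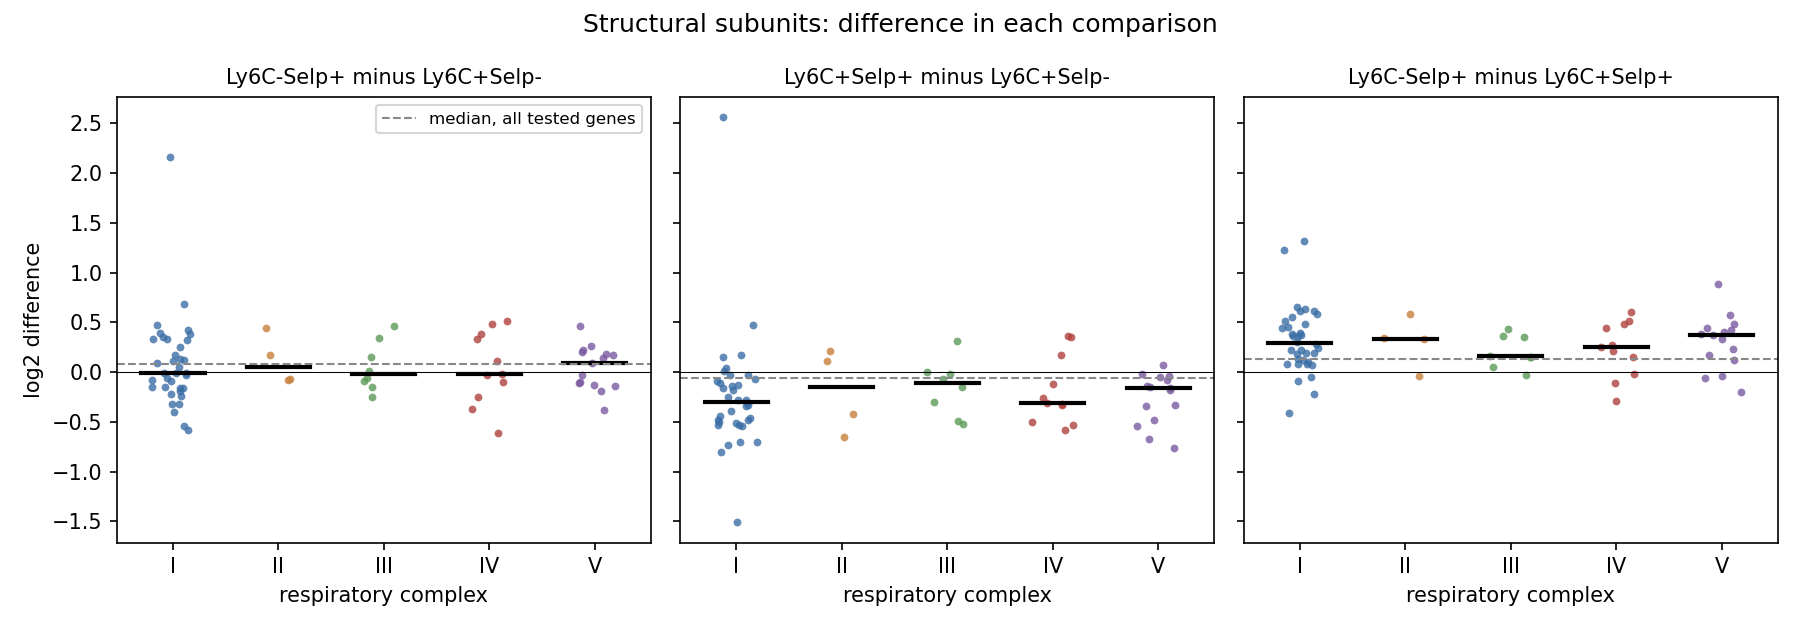
Log2 differences (y axis) of the 74 structural subunits by complex (x axis) in the 3 comparisons; points are genes, black lines their medians and the dashed line the median of all tested genes. The medians of the 5 complexes lie between -0.02 and 0.10 in the first panel, between -0.30 and -0.11 in the second and between 0.16 and 0.37 in the third.

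The comparisons share libraries, so their values are set side by side only. Of the 74 structural subunits, Ly6C+Selp+ ECs had the lowest subset mean in 54 (73.0%), against 39.5% of all tested genes, and after scaling every library to the same sum in 35 (47.3%), against 26.3%. Scaling to the sum shifted the median of all tested genes from 0.08 to -0.05 between Ly6C- and Selp- ECs and from 0.14 to -0.06 between Ly6C- and Ly6C+Selp+ ECs. Relative to the median of all tested genes, the members lay at -0.08, -0.11 and 0.11 in the 3 comparisons, and over 10 ways of fitting all 6 libraries at -0.10 to -0.03, -0.12 to -0.08 and 0.07 to 0.16. With 1 library left out, these ranges were -0.15 to 0.0021, -0.23 to -0.04 and 0.05 to 0.22.

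Genes that act with the complexes were read from 7 other lists. By limma, none of their 94 tested genes passed in any comparison, and 9 had an unadjusted p below 0.05 in at least 1. The share of all tested genes at that p is not given here, so the 9 are not read as many or few. The lists held the factors that assemble complexes III, IV and V (19 tested genes), the other complex I assembly factors (6), the electron carriers and further respiratory subunits (12), the regulators of mitochondrial biogenesis (15), the citric acid cycle (14), import and carriers (19) and uncoupling and oxygen defence (9). Cyc1, the cytochrome of complex III, measured 35.4 and 24.7 FPKM for Selp- ECs, 23.1 and 20.1 for Ly6C+Selp+ ECs and 37.1 and 26.8 for Ly6C- ECs. Among the regulators, Yy1 stood at 17.3 to 27.8 FPKM, Nrf1 at 6.40 and 6.49, 3.74 and 3.62, and 6.06 and 5.28 FPKM in the 3 subsets, and the coactivator Ppargc1a did not exceed 0.30 FPKM. Both Ly6C+Selp+ libraries were the lowest for Nrf1, without a call (-0.67 ± 0.29 against Selp- ECs, adjusted p = 0.66 by limma). Nrf1 was picked from the 15 tested regulators, and a link to the levels of the members was not tested.

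Medians of other pathways stood at other values, and no difference between lists was tested. Between Ly6C- and Selp- ECs the median was 0.15 over 77 mitochondrial ribosomal proteins, 0.46 over 81 cytosolic ribosomal proteins and 0.35 over 17 genes of glycolysis. Between Ly6C+Selp+ and Selp- ECs the medians were -0.23, 0.04 and 0.19, and between Ly6C- and Ly6C+Selp+ ECs 0.32, 0.42 and 0.30. Counts at an unadjusted p below 0.05 again stand without the share of all tested genes. By limma, no mitochondrial ribosomal gene passed in any comparison (15 had an unadjusted p below 0.05 in at least 1) and 1 cytosolic one did (19 likewise). In glycolysis, only the glucose transporter Slc2a1 did, with 12.9 and 15.9 FPKM for Selp- ECs, 35.5 and 46.4 for Ly6C+Selp+ ECs and 56.0 and 72.9 for Ly6C- ECs, where it was higher than for Selp- ECs by 2.08 ± 0.27 (adjusted p = 0.0030). The 6 values of Slc2a1 did not overlap between subsets, in the reverse order of Cox4i2.

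**Figure D5:**
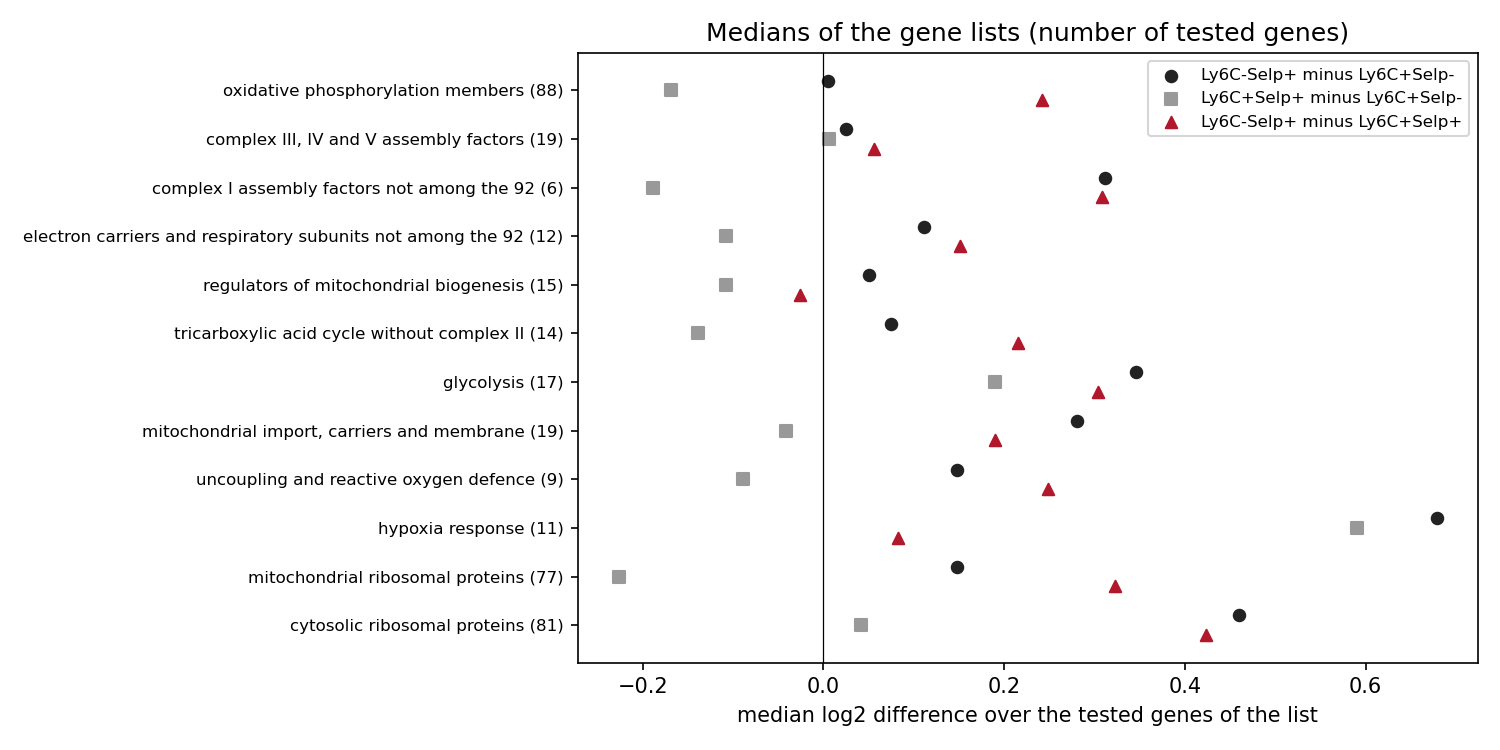
Median log2 difference (x axis) over the tested genes of each list (y axis, number of tested genes in brackets) in the 3 comparisons, marked by shape. The members lie at 0.0045, -0.17 and 0.24, while cytosolic ribosomal proteins lie at 0.46, 0.04 and 0.42.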

How the data were processed

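Trimmed reads were aligned to mm9 by the authors, who obtained FPKM for each library with Cufflinks, and the deposited FPKM values come with confidence bounds and no counts; submitters' processing notes name CASAVA 1.8, TopHat2 2.0.10 and Cufflinks 2.1.1, and the annotation is not given in the sources used here. Replicates were not pooled. From these values log2(FPKM + 1) was computed without scaling between libraries, and genes with at least 1 FPKM in at least 2 libraries were fitted with limma 3.58.1 in R 4.3.3 (trend on the mean, all 6 libraries, a mean per subset); Benjamini-Hochberg adjustment of the p-values ran over all 11717 genes. Fragments were read back as the square of 2 FPKM over the upper half-width of the interval. Copies were sought with blastn 2.17.0 (at least 95% identity over at least 80% of the coding sequence, 89 members with a transcript), and 21 members had at least 1. Library labels shared only a number between subsets. The script was tested on simulated data.

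Members and lists were chosen with earlier results of these data known. Named are members that passed the test, the 2 highest and the 2 with the largest difference in each complex, fixed core subunits, isoform families, members below the filter and Ndufaf factors; others named beside counts (such as Ndufb2 and Atp5o) were chosen after their values were seen. The values of a fixed core subunit are not reported here. Alternatives were another pseudocount, filters, 3 scalings, a replicate block, limma without trend, only the libraries compared, and each library left out.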

Additional observations from a re-analysis of the deposited data

How the results depend on the processing

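Between Ly6C- and Selp- ECs, the 2 called members became 1 with a pseudocount of 0.1, 3 with each of the 3 scalings and with only the 4 libraries compared (Ndufa4l2 added), 4 with the replicate block, 6 with the block after scaling to the sum, 0 when only structural subunits were counted, 1 among members with at least 10 estimated fragments in at least 2 libraries, and 1 to 3 when a library was left out. Between Ly6C+Selp+ and Selp- ECs, the count of 0 became 1 with the block after scaling, and 0 to 1 when a library was left out. Between Ly6C- and Ly6C+Selp+ ECs, the count of 0 became 1 with scaling to the sum, with median-ratio scaling, with quantile normalization and with the replicate block, and 2 with the block after scaling. The calls over all tested genes under the alternatives are not given here for these last 2 comparisons. Their counts are therefore not read as many or few. Calls over all 11717 tested genes moved as well between Ly6C- and Selp- ECs. They went from 485 to 439 with a pseudocount of 0.1 and to 709, 696 and 694 with scaling to the sum, median-ratio scaling and quantile normalization. With the replicate block they were 971, and with the block after scaling to the sum 1205. The block with scaling, the structural subunits and the fragment minimum were chosen after seeing the data. The replicate block added Ndufa4l2 (adjusted p = 0.028) and Cox7a2l (0.033), and scaling with it also added Cox5b and Atp5j; the cause was not tested. Deviations of libraries with the same number correlated at 0.18 to 0.31 over all tested genes and at -0.02 to 0.15 over the members, with 2 numbers only. The medians of the members moved by less than the spread of the library medians (0.33) under every alternative. This is a weak check, since the spread comes from the same libraries that were left out. Without 1 library, the median between Ly6C- and Selp- ECs ran from -0.27 to 0.28. With a library left out, the lone library of a subset was assumed to vary like the others. Of 739 differences of named members under alternatives, 676 kept their sign, and no called one reversed. Genes with few fragments, such as Cox6b2 and Ndufaf6, are limited by depth.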
